A study of Canis rufus and Canis latrans with 56 samples.

Results

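CDA, GGH and NAMPT encode enzymes of nucleoside, folate and NAD metabolism. They were taken by gene symbol from the probe annotation of a human bead array, as 3 of 16121 named genes, and each has 1 probe there (GI_11386156-S for CDA, GGH by GI_4503986-S and NAMPT by GI_5031976-I). The array was hybridised with labelled RNA from the whole blood of 1 coyote (Canis latrans, animal 20288) and 13 red wolves (Canis rufus, a close relative of the coyote that survives through captive breeding). Blood was drawn into EDTA tubes and kept in RNAlater. The coyote was a free-ranging female. Of the wolves 6 were captive (2 females and 4 males) and 7 free-ranging (2 females and 5 males), and ages are not given in the sources used here. The labels do not tie captivity or sex to single wolves, and neither was compared. Each animal's labelled RNA went onto 4 arrays, 56 in all on 7 slides, so the arrays of an animal are technical. The coyote comparison and all correlations use 1 value per animal. The F test among wolves sets differences between animals against the noise of arrays, so its p-values cover technical error only.

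CDA, cytidine deaminase, converts cytidine and deoxycytidine to their uracil counterparts in pyrimidine salvage, and in humans it is abundant in mature granulocytes. GGH, gamma-glutamyl hydrolase, trims the glutamate tail that FPGS adds to folates, after which the folate can leave the cell. NAMPT, nicotinamide phosphoribosyltransferase, makes the rate-limiting step by which nicotinamide is returned to NAD, and in human leukocytes it is induced by inflammatory stimuli. The 3 enzymes share no pathway step.

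A level below is a log2 intensity relative to the array's mean signal, adjusted for slide, so that a difference of 1 is a doubling. Since human probes were used on canid RNA, the level of one probe cannot be set against that of another. The highest mean level among 40 genes of liver and skeletal muscle, 0.396, served as a bound for background, and 2064 of 24354 probes (8.47%) had a mean above it. Red cell genes were well represented, with 9 of 16 measured markers above the bound. White cell markers mostly were not: 1 of 28 for neutrophils, 2 of 14 for monocytes, 3 of 18 for T cells and 0 of 15 for B cells. The 95th percentile of signal ran from 0.332 to 1.24 over the arrays, and wolf 11136 had the lowest mean over its arrays, 0.381.

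The 3 genes were selected on their measured levels over the wolves, which are therefore given as a description. CDA was bright in all animals. Its level was 6.10 in the coyote. Among the wolves it was highest in 111080 at 6.14, had a median of 4.67 in wolf 11136, and was lowest in 11273 at 3.32. The span of the wolves was 2.83 on the log2 scale, or 7.09-fold.

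Wolves 11310, 11270, 11206 and 11105 followed 111080 at 5.85, 5.84, 5.68 and 5.61. Wolf 10537 stood at 5.20, and 11136, 11148, 10632 and 11275 at 4.67, 4.56, 4.53 and 4.21. Wolves 10406 and 11274 stood nearest to the lowest, at 3.56 and 3.52. The largest gap between neighbours in this order, 0.65, separated 11275 from 10406. The SD over wolves was 0.98 (n = 13), against 0.20 between arrays of an animal.

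GGH was at 6.24 in the coyote, above every wolf. In the wolves it was highest in 11105 at 6.07, had a median of 5.24 in 10537 and was lowest in 11273 at 3.29, a 6.86-fold span. Wolves 111080, 11206, 11136, 11310 and 11270 lay close together below 11105, at 6.00, 5.92, 5.82, 5.75 and 5.71. Wolves 11148, 11275, 10632, 10406 and 11274 stood at 4.80, 4.69, 4.57, 4.43 and 4.19. Its largest gap was at the bottom of the order: 0.90 between 11274 and 11273, which stood alone. The SD over wolves was 0.86 (n = 13), against 0.24 between arrays.

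NAMPT stood at 2.998 in the coyote. In the wolves it ran from 3.06 in 111080, through a median of 1.45 in 11148, to 0.25 in 11273. The level in 11273 lay below the background bound, so the 7.02-fold span as measured is at least 6.33-fold when counted from the bound. Wolves 11270, 11105, 11206 and 11310 stood at 2.51, 2.37, 2.27 and 2.22, then 11136 at 1.58 and 10537 at 1.35. Wolves 10632, 11274, 11275 and 10406 stood at 0.87, 0.78, 0.71 and 0.58, not far above the bound. The largest gap, 0.64, lay between 11136 and 11310. The SD over wolves was 0.88 (n = 13), against 0.24 between arrays.

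The precision of an animal's level allows the broad order and not the exact ranks. The 95% half-width of a difference of 2 animals was 0.30 for CDA, 0.36 for GGH and 0.36 for NAMPT, from the spread of arrays alone. Of the 12 gaps between neighbouring wolves, 4 exceeded it for CDA, 3 for GGH and 3 for NAMPT. The other neighbours did not differ beyond the spread of their arrays.

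**Figure D1:**
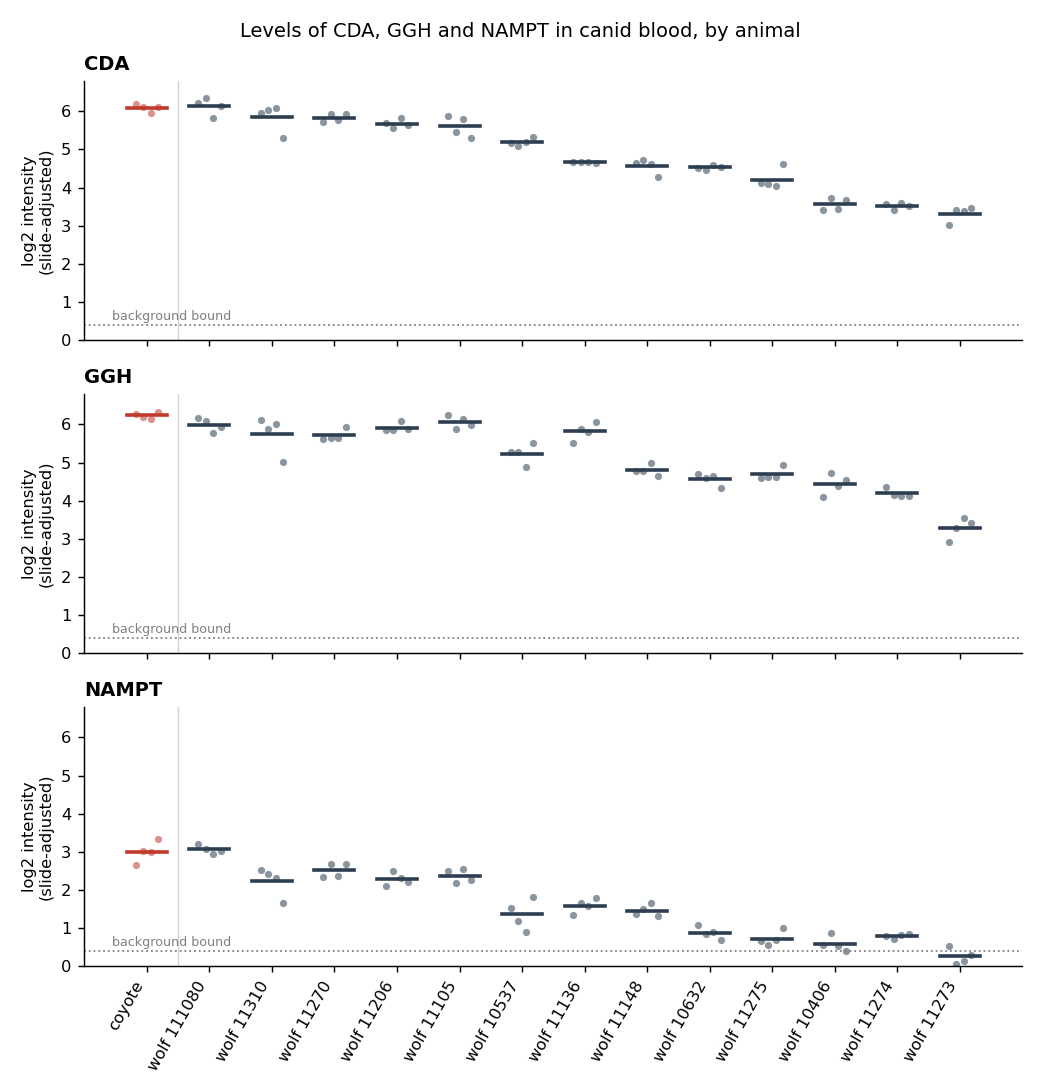
Slide-adjusted log2 intensity of CDA, GGH and NAMPT (y axis) in the coyote and 13 red wolves (x axis, wolves by falling CDA level); dots are the 4 arrays of an animal, bars its level, and the dotted line is the background bound of 0.396. All 3 genes are lowest in wolf 11273, at 3.32, 3.29 and 0.25, and the coyote is near the top in each panel.

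With 0.98, 0.86 and 0.88, the SDs over wolves ranked 15th, 36th and 28th of all probes for CDA, GGH and NAMPT. The median SD was 0.087 over all probes and 0.24 over those above the bound. The share of variance between wolves was 0.956 for CDA, 0.919 for GGH and 0.932 for NAMPT, against a median of 0.538 above the bound. All 3 passed the F test among wolves, where 11.2% of all probes and 78.1% of those above the bound did (limma, adjusted p under 0.05), and since the same values chose the genes, this count is no result about them. In whole blood, fewer cells of a type and less RNA per cell cannot be told apart.

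Slide also moved the probes. With animal kept in the model, levels differed between slides for CDA (adjusted p = 0.0299), GGH (adjusted p = 2.07e-09) and NAMPT (adjusted p = 2.11e-09), as they did for 20.3% of all probes and 84.0% of those above the bound. The effects spanned 0.44, 0.92 and 0.89 on the log2 scale, and were highest on slide 32020 for all 3 genes. They were lowest on slide 32022 for CDA and on slide 32010 for GGH and NAMPT. The span of the wolves was 2.83, 2.78 and 2.81 after this adjustment. Without the slide term each SD over wolves moved by less than the spread between arrays.

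The 3 genes followed nearly the same order of wolves. Since they were chosen with these values known, this shared order and the correlations among them below are a description. Wolves 10406, 10632, 11148, 11273, 11274 and 11275, 6 of 13, were below the wolves' mean for all 3 genes. Wolves 11105, 11206, 11270, 11310 and 111080 were above it for all 3, and 2 wolves, 10537 and 11136, were on different sides. Of the 78 pairs of wolves, 64 had the same order in all 3 genes.

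Pearson's r over the 13 wolves was 0.948 for CDA with NAMPT, 0.907 for CDA with GGH and 0.905 for GGH with NAMPT. Spearman's rho was 0.929, 0.868 and 0.896. Without the 2 wolves farthest from the median of the first gene of each pair, r was 0.929, 0.883 and 0.9001. Within the 7 slides, each with 7 or 8 wolf arrays, r lay between 0.867 and 0.969, between 0.805 and 0.981, and between 0.864 and 0.952. The measurements share arrays and RNA, and the deviations of single arrays from their animal and slide were also correlated, at 0.470, 0.738 and 0.658 over 56 arrays. In wolf 11310 the array on slide 32022 was the lowest of its 4 for all 3 genes, at 5.31, 5.01 and 1.64 after adjustment for slide.

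GGH set wolf 11136 apart from the common order. There CDA stood 0.16 below its mean over the wolves and NAMPT 0.04 above its own, while GGH stood 0.71 above its own. The difference between the deviations of CDA and GGH in this wolf was -0.86, the largest of any wolf, followed by -0.58 in wolf 10406. Without wolf 11136 r of CDA with GGH was 0.947. For CDA and NAMPT the widest differences were 0.56 in wolf 10537 and -0.54 in wolf 11274.

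**Figure D2:**
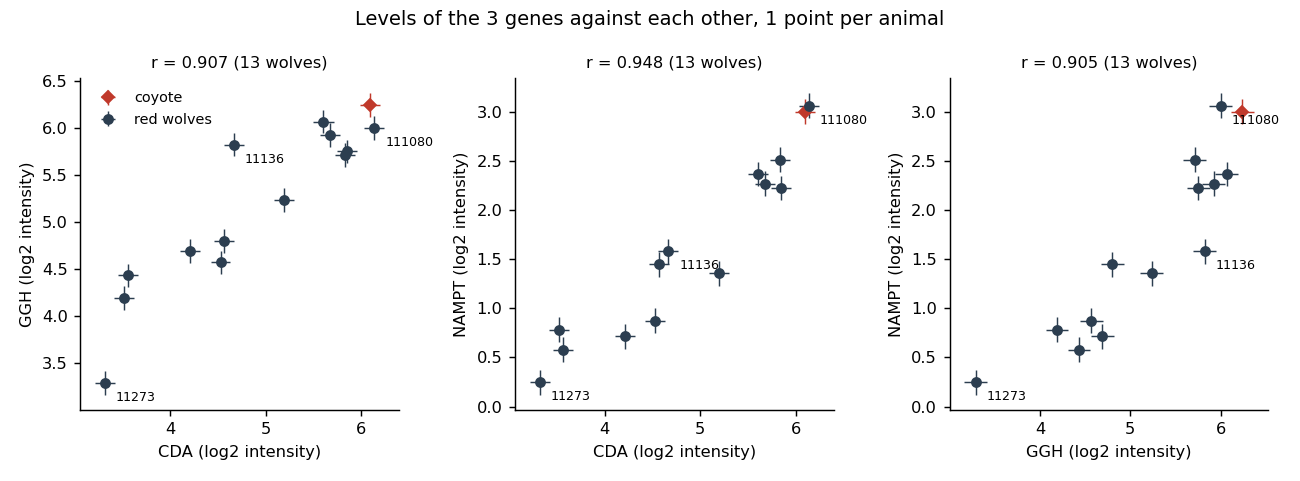
Log2 intensity of 2 genes in each panel, 1 point per animal with the SE of its level (red diamond, coyote; dark circles, 13 red wolves). The points rise together in all panels, with r = 0.907, 0.948 and 0.905 over the wolves, and wolf 11136 lies above the others of like CDA level in the GGH panel.

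This order was not particular to the 3 genes. Of 2061 other probes above the background bound, 33.3% had r of at least 0.5 with CDA over the 13 wolves, 28.1% with GGH and 33.1% with NAMPT. At the other end, 8.59%, 13.3% and 8.44% had r of -0.5 or lower. For each of the 3 genes the correlations formed a group that was densest between -0.5 and -0.4 and another that was densest between 0.8 and 0.9, with fewer probes between. An r of at least 0.9 was reached by 124 probes with CDA, 53 with GGH and 115 with NAMPT, and 35 reached it with all 3. Among these probes, 0.970% had an r with CDA at least as high as NAMPT's, and 5.24% one at least as high as GGH's. With GGH, 2.23% matched or exceeded CDA's r and 2.33% NAMPT's. With NAMPT, 5.19% matched or exceeded GGH's r. Since the 3 genes were chosen with these values known, the shares are a description and no test. The first principal component of the same 2061 probes, the main axis on which the wolves differed, held 53.7% of their variance. Its r was 0.945 with CDA, 0.866 with GGH and 0.926 with NAMPT (rho 0.951, 0.857 and 0.885). With wolves 11206 and 11310, the outermost on this axis, left out, r became 0.949, 0.860 and 0.946.

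**Figure D3:**
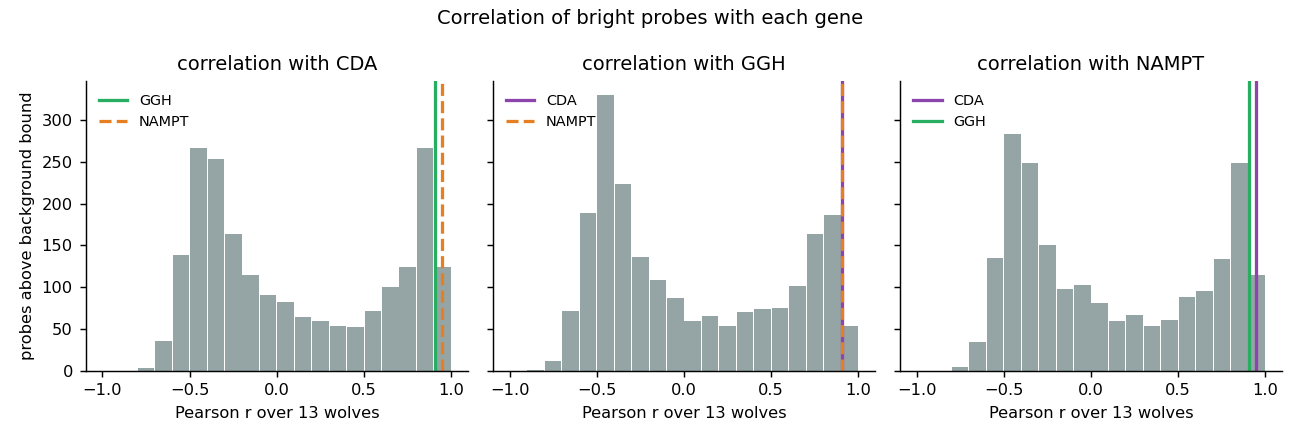
Number of probes above the background bound (y axis, 2061 probes) by their Pearson r with CDA, GGH or NAMPT over 13 red wolves (x axis, bins of 0.1); vertical lines mark the other 2 genes. The bars form 2 groups, and the lines stand in the right-hand one, at 0.905 to 0.948.

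The named genes most like CDA over the 13 wolves were CCS (r = 0.966), the copper chaperone of superoxide dismutase, PPP1CC (0.965), a catalytic subunit of protein phosphatase, and PSMB3 (0.965), a subunit of the proteasome core. They were followed by CDC42 (0.963), a small GTPase that steers the actin cytoskeleton, and U2AF1 (0.962), a splicing factor. Nearest to GGH were the glycolytic enzyme GAPDH (0.972), CHPT1 (0.971), an enzyme of phosphatidylcholine synthesis, TMEM167A (0.969), the proteasome core subunit PSMA1 (0.966) and SFT2D1 (0.960). Nearest to NAMPT were TANK (0.987), an adaptor of TRAF signalling, TDG (0.980), a DNA repair glycosylase, and PSMC6 (0.979), an ATPase of the proteasome. LAMP2 (0.969), a lysosomal membrane protein, and RAB1A (0.968), a GTPase of transport to the Golgi, came next. The lists had no gene in common, yet all 15 genes had r of at least 0.861 with each of CDA, GGH and NAMPT. By this choice they follow the same order of wolves. All 15 were lowest in wolf 11273, as were 15.6% of the other probes above the bound. Of the 15 genes 10 were highest in 111080, as were 13.2% of those probes. GAPDH, for one, stood at 5.38 in the coyote and between 2.99 and 5.72 in the wolves.

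The spread of signal and the cell type lists were set beside the 3 genes over the wolves, in 12 relations. The mean 95th percentile of an animal's arrays had r of 0.254 with CDA, -0.0093 with GGH and 0.228 with NAMPT (permutation test, two-sided, adjusted p between 0.496 and 0.977). Without wolves 11136 and 10406 r was 0.125, 0.162 and 0.206. The wolf highest for NAMPT, 111080, had a mean percentile of 0.866 and the lowest, 11273, 0.824. The neutrophil list, whose mean lay at -0.0154 in the coyote and between -0.0477 and 0.0045 in the wolves, had r of -0.371, -0.452 and -0.366 (adjusted p between 0.209 and 0.293). Without wolves 11105 and 11310 r was -0.0708, -0.212 and -0.0980, so that the size of r rests on these wolves. Within slides r of this list lay between -0.880 and 0.0999, between -0.827 and 0.0373, and between -0.944 and 0.301. Of its 28 measured genes 15 had a mean level of 0 or lower, and only NCF1, a subunit of the phagocyte oxidase, lay above the bound. Its summed level was -0.43 in the coyote and between -1.34 and 0.13 in the wolves.

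Red cell genes had negative r with each of the 3 genes, and none passed the test. The mean of the red cell list was 0.967 in the coyote and between 0.798 and 1.37 in the wolves. The summed level was 15.5 in the coyote and between 12.8 and 22.0 in the wolves. Red cell genes had r of -0.558 with CDA, -0.523 with GGH and -0.514 with NAMPT (permutation test, two-sided, each adjusted p = 0.147, rho -0.621, -0.385 and -0.538). With the outermost wolves, 11310 and 11105, left out, r became -0.722, -0.792 and -0.730. Within slides r lay between -0.914 and -0.270, between -0.890 and -0.0623, and between -0.812 and -0.168. The slides hold arrays of the same wolves, so they are not independent. T cell genes had r of -0.530, -0.582 and -0.561 (each adjusted p = 0.147, rho -0.434, -0.511 and -0.632), with a mean of 0.0604 in the coyote and between -0.0218 and 0.0863 in the wolves. Without wolves 11206 and 10632 r was -0.560, -0.676 and -0.691. Within slides r lay between -0.710 and -0.0479, between -0.812 and 0.0837, and between -0.768 and -0.0555. The part of these lists in the levels of CDA, GGH and NAMPT was not tested.

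The other enzymes of the same pathways were taken from lists of pyrimidine, folate and NAD metabolism, with 1 probe per gene, the brightest. Most lay below the background bound. In the pyrimidine list 6 of 47 measured genes differed among wolves, CDA included (limma F test, adjusted p under 0.05). Without CDA, which was chosen on these values, they were 5 of 46, or 10.9%, against 12.8% of all named genes. The other 46 had a median SD over wolves of 0.090, against 0.088 over all named genes. UPP1, which splits uridine in the salvage pathway, reached 1.71 in wolf 11273 and only 0.67 in 11136 (SD 0.34, adjusted p = 3.5e-06). Its r with CDA was -0.419 over the 13 wolves, within the lower of the 2 groups of correlations with CDA among bright probes.

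DTYMK, thymidylate kinase (SD 0.18, adjusted p = 0.0151), and SLC28A1, a sodium-driven carrier of pyrimidine nucleosides (SD 0.16, adjusted p = 0.000299), also lay above the bound on average. Neither was called without the slide term or with slide as a random block, and DTYMK was not called with quantile normalization. DHODH of de novo pyrimidine synthesis (SD 0.15, adjusted p = 0.0024) and DUT, which clears dUTP (SD 0.12, adjusted p = 0.0216), lay below it. UPP1, DTYMK, DHODH and DUT all had their lowest level in wolf 11136, the animal with the narrowest signal range. Without this wolf 3 genes of the list differed, namely CDA, SLC28A1 and UPP1. The count was also 3 when array number 1, 2 or 3 of each animal was left out. DCK, the kinase that starts deoxycytidine salvage and so competes with CDA for it, had a level of 0.57 in the coyote and 0.44 ± 0.12 in the wolves (SD, n = 13). It was not called in limma's F test among wolves (adjusted p = 0.141), but was called with dim probes left out; its adjusted p in the coyote comparison was 0.998.

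In the folate list 8 of 32 measured genes differed among wolves (25.0%), GGH included. Without GGH, chosen on these values, they were 7 of 31, or 22.6%, against 12.8% of all named genes. Above the bound 3 of the 4 others differed, as did 1264 of 1597 named genes there. MAT2A, which makes S-adenosylmethionine in white cells and most other tissues, had by far the largest SD beside GGH, 0.78. It stood at 4.02 in wolf 11206, 3.58 in 111080 and 3.51 in 11270, and at 1.53 in 10406, a 5.61-fold span (adjusted p = 9.79e-25). Its r was 0.711 with GGH, 0.782 with CDA and 0.795 with NAMPT over the 13 wolves. These lay within the upper group of correlations described above for bright probes. SHMT1, the cytosolic enzyme that loads folate with a carbon from serine, had r of -0.576 with GGH, within the lower group. It reached 1.701 in wolf 11275 and 0.58 in 11310 (SD 0.34, adjusted p = 9.87e-09).

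MTHFD1, which converts between loaded forms of folate, had an SD of 0.16 and its highest level in wolf 111080 at 0.75 (adjusted p = 0.000773). The other calls were below the bound: MTFMT, a mitochondrial formyltransferase, the secreted folate receptor FOLR3, MAT2B, which regulates MAT2A, and ATIC of purine synthesis, with SDs between 0.11 and 0.16 and adjusted p between 0.00211 and 0.0455. The median SD of the 31 genes beside GGH was 0.092. The count was 5 without wolf 111080, and 5, 5, 3 and 5 without array number 1, 2, 3 or 4 of each animal. With dim probes left out it was 4 of the 5 genes above the bound, the only ones then tested. GGH, MAT2A and SHMT1 differed in each of these, whereas MTHFD1, MTFMT, FOLR3, MAT2B and ATIC each lost their call in at least 1. FPGS, the enzyme opposed to GGH, lay below the bound, with -0.09 in the coyote against -0.16 ± 0.10 in wolves (SD, n = 13). Its adjusted p was 0.247 in limma's F test among wolves and 0.998 for the coyote against the wolves.

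In the NAD list 2 of 44 measured genes differed (4.55%), NAMPT and IDO2, and no others lay above the bound. Without NAMPT, chosen on these values, it was 1 of 43, or 2.33%, against 12.8% of all named genes. IDO2, a tryptophan-degrading enzyme at the head of de novo NAD synthesis, had a level of 2.36 in the coyote and of 2.50 ± 0.24 in the wolves (SD, n = 13), with 3.002 in wolf 11105 (adjusted p = 0.0478 among wolves). Its r with NAMPT was -0.076. The call of IDO2 ended without the slide term, with slide as a random block and with probes averaged per gene. It also ended without array number 1, 2 or 3 of each animal, and without any 1 of wolves 10406, 10537, 10632, 11105, 111080, 11136, 11270, 11274 and 11310. The median SD of the 43 genes beside NAMPT was 0.088, the value over all named genes. NMNAT1, which completes NAD after NAMPT in the nucleus, had -0.05 in the coyote against -0.14 ± 0.10 in wolves (SD, n = 13). Its adjusted p was 0.432 in limma's F test among wolves and 0.998 in the coyote comparison. DCK, FPGS and NMNAT1 were picked for their role after the values were seen.

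**Figure D4:**
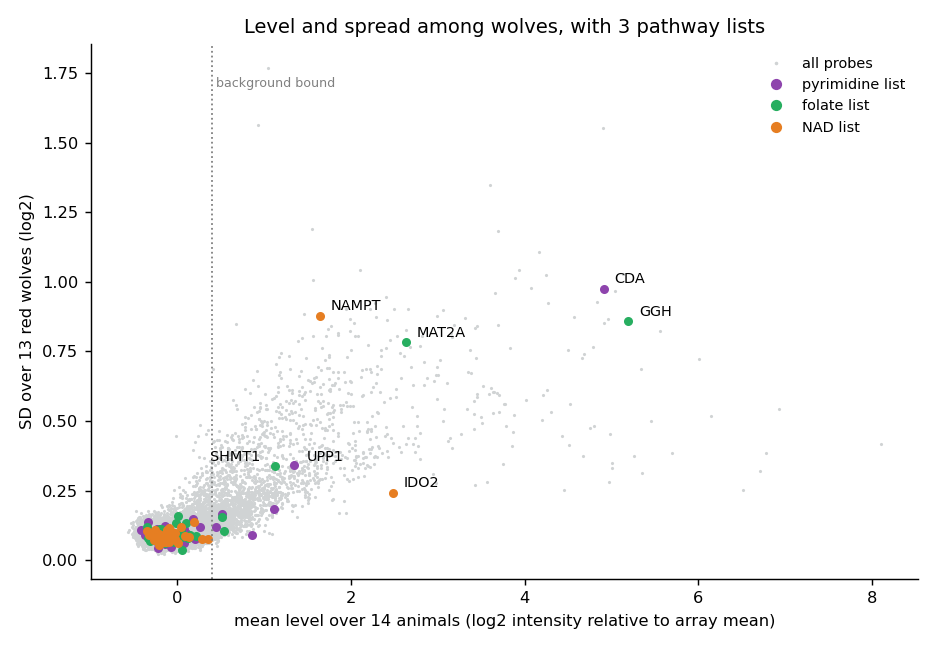
SD over 13 red wolves (y axis, log2) against mean level over 14 animals (x axis, log2 intensity relative to the array mean) for all probes (grey) and for the brightest probe of each gene in the pyrimidine, folate and NAD lists (coloured). CDA, GGH, NAMPT and MAT2A stand at SDs of 0.98, 0.86, 0.88 and 0.78, while most other enzymes sit left of the background bound with SDs near 0.09.

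The coyote stood near the top of the range for all 3 genes, and none of the differences passed the test. For CDA, 1 of 13 wolves was above the coyote, for GGH 0 and for NAMPT 1. NAMPT averaged 1.46 higher in the coyote than in the wolves, at 2.998 against 1.54 ± 0.88 (SD, n = 13 wolves), with a 95% interval of 0.10 to 2.82 and limma's unadjusted p = 0.0364, adjusted p = 0.998. CDA was 1.28 higher (6.10 against 4.82 ± 0.98, interval -0.47 to 3.03) and GGH 1.13 higher (6.24 against 5.11 ± 0.86, interval -0.47 to 2.72), both with adjusted p = 0.998. Of all probes 0.00411% passed (1 of 24354), and 3.74% had an unadjusted p under 0.05, 1.88% with the coyote higher. With 1 coyote its own spread was not measured and was taken as that of the wolves.

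The coyote's 4 slides gave the same direction. They hold technical arrays of the same coyote and of recurring wolves, so they are not independent. Against the mean of the 7 wolf arrays on the slide, the coyote was higher by 1.02 to 1.71 for CDA, by 0.91 to 1.27 for GGH and by 0.87 to 1.81 for NAMPT. On each of these slides the coyote's GGH exceeded all 7 wolf arrays. The coyote lay above all 13 wolves for 2.76% of probes above the background bound. The monocyte list, with only TYROBP and FCER1G above the bound, had a mean of 0.114 in the coyote and between -0.117 and 0.0059 in the wolves, with summed levels of 1.59 and between -1.63 and 0.083. The coyote lay inside the wolves' range for the neutrophil, T cell, B cell, natural killer cell, platelet and red cell lists. The part of monocyte genes in the coyote's levels of CDA, GGH and NAMPT was not tested, nor was their relation to these genes over the wolves. Whether the human probes bind coyote and wolf transcripts equally well was not tested. Among the 15 nearest genes above, the coyote exceeded the wolves' mean for all 15 and their range for 3 (CDC42, PSMA1 and LAMP2). Over all named genes, most of them below the bound, it exceeded the mean for 7827 of 16121. The 15 were picked for following CDA, GGH or NAMPT over the wolves, so their count is no separate result.

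**Figure D5:**
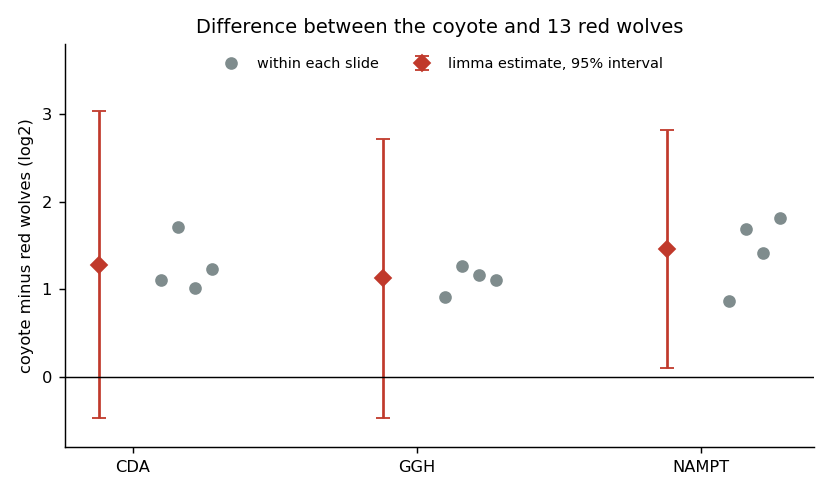
Difference in log2 intensity, coyote minus red wolves (y axis), for each gene; red diamonds with bars are limma's estimates with 95% intervals (1 coyote, 13 wolves), and grey circles are differences within the coyote's slides. The intervals of CDA and GGH span 0, that of NAMPT runs from 0.10 to 2.82, and all circles lie between 0.87 and 1.81. The circles come from technical arrays of the same coyote and are not independent.

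In the pyrimidine, folate and NAD lists 0 genes passed the adjusted test of the coyote against the wolves (limma), and 1, 0 and 2 had an unadjusted p under 0.05. Besides NAMPT these were NME2, a nucleoside diphosphate kinase (-0.38 in the coyote, -0.12 ± 0.12 in the wolves), and SIRT2, an NAD-dependent deacetylase (-0.04 in the coyote, -0.22 ± 0.09 in the wolves). The next in order of p were UCK2, a uridine-cytidine kinase (difference 0.17), RRM2, a ribonucleotide reductase subunit (-0.17), and the folate genes FOLR2 (-0.15), MAT1A (-0.14) and MAT2B (0.17). In the NAD list they were NMNAT2 (-0.18) and NAPRT (-0.17), which starts NAD synthesis from nicotinic acid. All of these but NAMPT lay below the background bound on average, and each adjusted p was 0.998. MAT2A had a larger difference of 0.67, with 3.25 in the coyote against 2.59 ± 0.78 in wolves (SD, n = 13, adjusted p = 0.998). The median difference of the genes beside CDA, GGH and NAMPT was -0.0047, 0.0354 and 0.0067 in the 3 lists, against -0.0032 over all named genes.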

How the data were processed

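RNA was amplified, labelled with biotin and read on human Illumina bead arrays, per the labels' protocols. The submitters' processing notes name BeadStudio 1.5.0.34. Each deposited value is a log2 intensity. The authors centred every array on its median, per the design text; in the table the mean of each array is 0 and the medians lie between -0.167 and -0.0325. The table holds 24354 probes and 0 missing values; 18339 probes have 1 gene symbol and 6015 none. The number of arrays limits the precision.

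Levels came from a fit of animal and slide to each probe. For tests, limma (version 3.58.1, R version 4.3.3) was run with an intensity trend and adjusted by Benjamini-Hochberg at 0.05 over all probes: an F test of animals among wolves, with slide in the model, and the coyote against the wolves on 1 value per animal. No 2 arrays of an animal were identical (smallest SD of a difference 0.206). List correlations used 100000 permutations, adjusted over 12 relations. Permutation tests planned for the pairs among CDA, GGH and NAMPT are not reported, since these genes were chosen with the same values known. The F test, the animals' levels and the coyote comparison were tried on simulated data, and the permutation tests were not. In the simulated coyote comparison, animals varied less than they did for CDA, GGH and NAMPT, so it does not cover these genes.

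The genes and lists were chosen with earlier results of these data known. Named were up to 8 differing members per pathway list by SD, up to 3 per list by p in the coyote, and the 5 named genes nearest each enzyme by r. The test between slides and the relations to array spread and cell lists were added after the values were seen. Alternatives were quantile normalization, centring on the 75th percentile or median, arrays scaled to equal SD, no slide term, slide as a random block, dim probes left out, no intensity trend, averaging all probes per gene, and leaving out each array number and each wolf.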

Additional observations from a re-analysis of the deposited data

Results flagged for a closer look

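Within 6 of 42 sets of 4 arrays (14 animals, 3 genes), 1 array was marked as apart from the other 3 after adjustment for slide. The mark rests on the ratio of its gap to the whole range of the set, and about 5% of independent sets are marked by chance. The 3 genes share arrays, so these sets are not independent. A high ratio can also mean that the other 3 arrays lie close together. The whole GGH range was 0.221 in wolf 11206 and 0.222 in 11274, against an SD of 0.24 between arrays. The GGH set of wolf 11310, with a range of 1.10, was not marked. For CDA the lowest array of wolf 11273 was at 3.03 against 3.38 to 3.45 (ratio 0.834), and the highest of wolf 11275 at 4.62 against 4.03 to 4.11 (0.856). For GGH the highest array stood apart in wolves 11206 (6.08 against 5.86 to 5.88, ratio 0.917), 11270 (5.92 against 5.63 to 5.65, ratio 0.923), 11274 (4.35 against 4.13 to 4.14, ratio 0.924) and 11275 (4.94 against 4.60 to 4.61, ratio 0.9498). In wolf 11275 the same array, on slide 32024, stood apart for both genes.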

How the results depend on the processing

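Under the 22 other settings run on them, the correlations of CDA with NAMPT, CDA with GGH and GGH with NAMPT ran from 0.867 to 0.964, from 0.830 to 0.947 and from 0.674 to 0.930. The lowest came with quantile normalization for CDA with GGH and with arrays scaled to equal SD for the other 2, and the cause was not tested. The SDs of the 3 genes over wolves moved by less than the spread between arrays in all 22. The coyote differences stayed positive and short of the test in all 24 settings run on them, at 1.03 to 1.39 for CDA, 0.92 to 1.296 for GGH and 1.21 to 1.61 for NAMPT (limma, adjusted p at least 0.87). Probes that differed among wolves numbered 2732 of 24354 in the main fit, 1613 of them among the 2064 above the bound. With dim probes left out they numbered 1790 of 2064. They numbered 1979 without the slide term, 2340 with slide as a random block, and 1629 to 2770 when array numbers or wolves were left out. Probes that differed in the coyote numbered 2 with 75th-percentile centring, 0 without an intensity trend (860 at an unadjusted p under 0.05 in limma), and 1 to 4 with 1 array number or wolf left out, 4 without wolf 11310. The folate list had 4 calls among its 5 genes above the bound with dim probes left out, and 3 to 8 in the leave-outs. The pyrimidine list had 3 to 6 in the leave-outs. The NAD list had 1 without a slide term, with slide as a random block or with probes averaged per gene, and 1 to 2 in the leave-outs. Leave-outs use fewer arrays, and the setting without dim probes tests fewer probes. For the other settings the cause was not tested. Low signal limits the lists: most members lie below the background bound.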
